A study of Saccharomyces cerevisiae with 15 samples.

Results

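The effect of rapamycin on where Fhl1 sits in the yeast genome was followed on 8 of the 15 arrays with 2 colours of the series, chosen by their titles: 3 arrays of Fhl1 from untreated cells and 5 of Fhl1 from cells given rapamycin at 200 ng/mL. All 6803 probes of the table were used, and 134 of them lay in front of the 5′ end of a cytosolic ribosomal protein (RP) gene. The other 7 arrays measured Ifh1. They entered only as a reference for the direction rule, in the grouping of arrays by correlation and as alternatives. Cells of both groups were Saccharomyces cerevisiae of strain W303 in which FHL1 carried a 13myc tag and the marker HIS3MX6 (W303+FHL1-13myc-HIS3MX6). They grew in YPD, a rich medium, at 30 °C to log phase and were crosslinked for 30 min. The second channel of each array held chromatin of untagged W303 precipitated with the same antibody against myc. The duration of the treatment, and whether the untagged cells of the rapamycin arrays also received the drug, are not given in the labels. The labels call the replicates biological. Every value comes from 1 tagged strain, and whether it stems from 1 clone is not stated.

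Fhl1 is a forkhead-type DNA-binding protein that sits at RP promoters, usually together with Rap1. Its coactivator Ifh1 binds to Fhl1 in growing cells, and the corepressor Crf1 has been reported to compete with Ifh1 for Fhl1. Binding of Crf1 was not measured on these arrays. Rapamycin inhibits the TOR kinase complex TORC1, which couples nutrients to growth, and RP transcription is among the processes that fall when TORC1 is inhibited. The comparison asks whether Fhl1 itself leaves, stays at or spreads from its promoters under the drug.

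A value is the log2 ratio of the tagged to the untagged precipitate at a probe, after each array was centred on its median, so 0 stands for the typical probe. The direction of the ratio differed between arrays as deposited, and the labels do not say which array was dye-swapped. Each array was therefore turned so that the median of the probes facing large-subunit (RPL) genes was positive. This turned untreated replicates 2 and 3 and rapamycin replicates 1, 3 and 5. The sign of the RPL level is thus a product of the rule, and its size is not. The 53 probes facing small-subunit (RPS) genes and no RPL gene were not used for the turning, and their median had the same sign as the RPL median on all 8 arrays. Where RP promoters carry little signal the rule still gives a positive level, but a small one. On the 3 Ifh1 rapamycin arrays the size of the RPL median was 0.03, 0.08 and 0.04.

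The 8 Fhl1 arrays had no missing values. Across the 6669 probes facing no RP gene, arrays before turning correlated with each other between -0.19 and 0.30, so little besides the RP promoters recurred from array to array. All 15 arrays were grouped by such correlations into 4 sets. Untreated 1 fell beside rapamycin 2, untreated 2 beside rapamycin 3, and untreated 3 beside rapamycin 4 and 5. Rapamycin 1 had no other Fhl1 array in its set. Arrays of a set were only weakly alike, with correlations of 0.09, 0.21, 0.11 and 0.30 for these pairs with an untreated array. Rapamycin 4 and 5 correlated at 0.06. In the last set untreated 3 and rapamycin 5 were turned and rapamycin 4 was not. Each of the first 3 sets holds both conditions, which allows values within a set to be printed beside the pooled ones.

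RP promoters stood above the rest of the genome on every array of both conditions. For the 81 RPL probes the turning fixes this direction. The median of the 53 RPS-only probes, outside the rule, was also positive on every array, from 0.78 to 1.53. The median over the 134 RP probes was 1.53, 1.28 and 0.75 on the untreated arrays 1 to 3. With rapamycin it was 1.48, 1.24, 0.92, 1.08 and 0.65 on arrays 1 to 5. The ranges overlap almost fully, and the lowest array of each condition lies far below the highest of the same condition. The means were 1.19 ± 0.40 (SD, n = 3, a 2.28-fold ratio) untreated and 1.07 ± 0.31 (SD, n = 5, 2.10-fold) with rapamycin. The difference of -0.12 was smaller than the spread between arrays (exact permutation test over 56 splits, two-sided p = 0.643, adjusted p = 0.893 over 7 tests of this kind; the smallest p this design allows is 0.0357). The 95% interval of the difference, from the same permutations, ran from -0.88 to 0.72. Its lower end is a smaller fall than the whole untreated level of 1.19, but a loss of a large part of that level lies inside the interval.

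**Figure D1:**
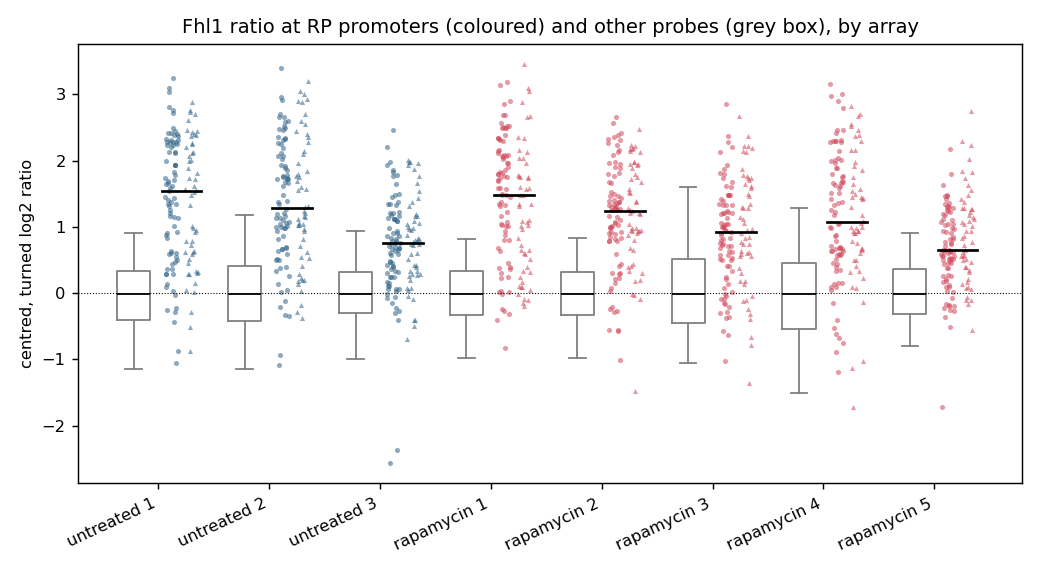
Centred and turned log2 ratio (y axis) at the 134 RP promoter probes on each of the 8 arrays (x axis). Circles are probes facing an RPL gene, triangles those facing RPS genes only, blue is untreated and red rapamycin, and the thick bar is the median of the RP probes. Grey boxes show the probes facing no RP gene, with quartiles and whiskers to the 5th and 95th percentile. RP medians lie between 0.65 and 1.53 and do not separate the conditions.

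The subunits gave the same picture. The RPL level was 1.20 ± 0.43 untreated and 1.13 ± 0.40 with rapamycin, a difference of -0.07 (exact permutation p = 0.821, interval -0.92 to 0.97). The RPS level over the 53 probes outside the turning rule was 1.53, 1.24 and 0.78 untreated and 1.10, 1.21, 0.96, 1.06 and 0.85 with rapamycin. Its means were 1.18 ± 0.37 (n = 3) and 1.04 ± 0.14 (n = 5), which differed by -0.15 (exact permutation p = 0.464, interval -0.67 to 0.42). A measure free of scale, the probability that an RPS probe outranks a probe facing no RP gene, was 0.856 ± 0.037 untreated and 0.847 ± 0.049 with rapamycin (exact permutation p = 0.75). The number of RP probes at a log2 ratio of 1 or more was 84, 88 and 45 on the untreated arrays and 90, 80, 59, 71 and 48 with rapamycin (exact permutation p = 0.893). None of these measures told the conditions apart.

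Within the sets grouped by correlation the RP level differed with rapamycin by -0.29 in the set of untreated 1 and by -0.37 in that of untreated 2. It was higher by 0.11 in that of untreated 3. The RPS level differed by -0.31, -0.28 and 0.17 in the same sets. The direction was therefore not shared between sets, which hold 1 or 2 arrays of a condition each. For these 2 levels the sign of the pooled difference rested on untreated replicate 1: without it the RP level differed by 0.0565 and the RPS level by 0.0255.

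The order of RP promoters was also much alike in the 2 conditions. Over the 134 RP probes the condition means correlated with a Pearson r of 0.86 and a Spearman rho of 0.87, a description across probes that share the same arrays within a condition. Of the 20 RP probes with the highest untreated mean, 13 were among the 20 highest with rapamycin. Array pairs of the same condition had a mean r of 0.56 over the RP probes (13 pairs, 0.41 to 0.71), and pairs of different conditions 0.59 (15 pairs, 0.40 to 0.76). Arrays of one condition were thus no more alike than arrays of different conditions (exact permutation p = 0.536). Above 0 on all 8 arrays lay 90 RP probes, 67.2% of them, against 36 or 0.54% of the probes facing no RP gene. The turning favours this for the RPL probes. Of the 53 RPS-only probes, which the turning did not use, 35 (66.0%) lay above 0 on all 8 arrays.

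**Figure D2:**
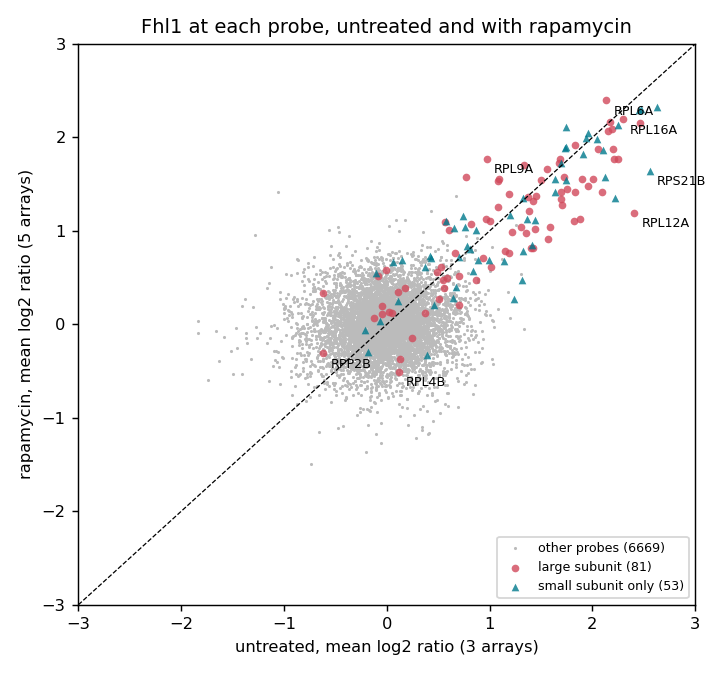
Mean log2 ratio of each probe untreated (x axis, 3 arrays) and with rapamycin (y axis, 5 arrays). Red circles are the 81 probes facing an RPL gene, blue-green triangles the 53 facing RPS genes only and grey dots the other 6669, and the dashed line marks equal values. RP probes spread along the line, with RPS21B and RPL12A below it and RPL9A above it.

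Among large-subunit genes, RPL16A was high on all 8 arrays. Its probe read 2.42, 2.47 and 1.98 untreated and 2.29, 2.31, 2.12, 2.79 and 1.47 with rapamycin. The means were 2.29 ± 0.27 and 2.19 ± 0.48, and the fitted difference was -0.10 (95% interval -0.89 to 0.69). The probe between the divergent genes RPL42B and CHS7, an export factor for chitin synthase, read 2.81, 2.65 and 1.93 untreated and 2.52, 2.38, 2.28, 1.43 and 2.17 with the drug. Its difference was -0.31 (-1.11 to 0.50), and a divergent probe cannot say which of its genes Fhl1 sits at. RPL2A, whose protein lies near the peptidyl transferase centre, read 3.09, 2.35 and 1.08 against 2.15, 2.65, 1.61, 2.90 and 1.48, a difference of -0.02. The untreated arrays of RPL2A span the whole rapamycin range.

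RPL6A had the highest mean of all probes with rapamycin. It read 3.24, 1.73 and 1.45 untreated and 3.14, 2.57, 2.37, 2.29 and 1.63 with the drug, so that untreated replicate 1 was above all rapamycin arrays and the other untreated arrays below most of them. The difference was 0.26 (-0.76 to 1.28). RPL2B, the second copy of RPL2, read 2.13, 1.91 and 1.64 against 2.69, 1.31, 1.24, 1.65 and 0.90. Its mean went from 1.90 ± 0.25 to 1.56 ± 0.68 with overlapping arrays.

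Some small-subunit promoters had levels as high. The examples here were picked partly for high means or a small difference, and others that read lower with rapamycin are given below. The probe of FRE8/RPS0B read 2.73, 2.70 and 1.93 untreated and 2.67, 1.93, 2.15, 2.45 and 2.24 with rapamycin, and the rapamycin arrays lie inside the untreated range. TEM1/RPS1B read 2.71, 3.05 and 1.67 against 3.46, 2.48, 1.58, 2.15 and 1.83, and both the highest and the lowest array were from rapamycin cells. YGR117C/RPS23A, in front of the gene of a protein that governs decoding accuracy, read 2.47, 2.41 and 1.87 against 2.66, 2.22, 1.88, 1.91 and 2.02. Its difference of -0.11 had an interval of -0.84 to 0.62. RPS11B read 2.37, 2.35 and 1.16 against 3.04, 1.97, 1.70, 2.36 and 1.18, with a difference of 0.09.

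**Figure D3:**
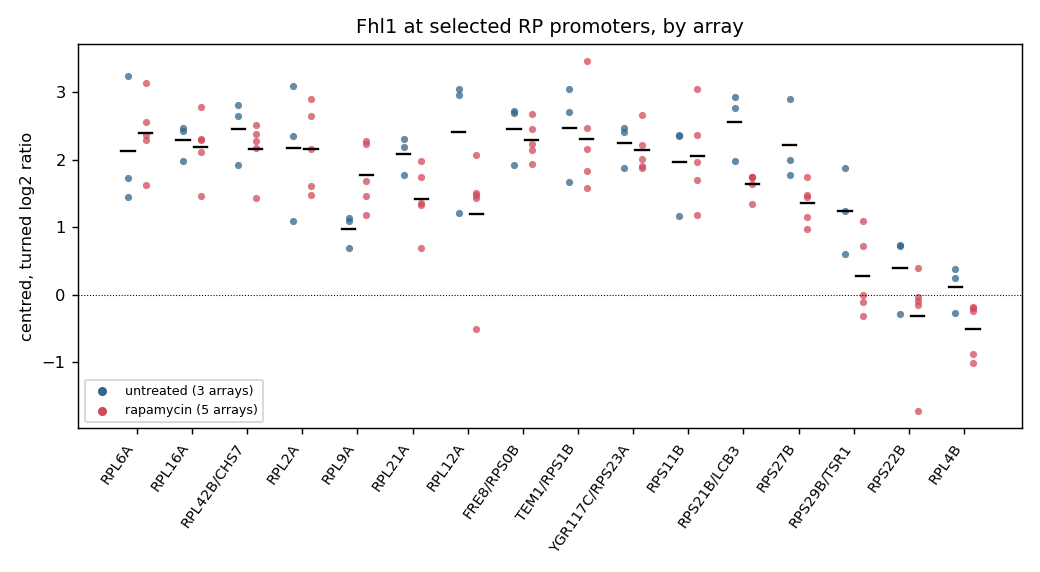
Log2 ratio (y axis) at 16 RP promoters (x axis) on the 3 untreated (blue) and 5 rapamycin (red) arrays. Each point is 1 array and each bar the mean of a condition. At RPS21B/LCB3, RPS27B and RPL9A the arrays of the conditions do not overlap, and at the other promoters shown they do.

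The difference between the conditions was tested at every probe. limma called 0 of the 6803 probes at a Benjamini-Hochberg adjusted p under 0.05 (percent called 0), and the smallest adjusted p was 0.999. At an unadjusted p under 0.05 it found 232 probes (3.41%), of which 4 were among the 134 RP probes. The arrays of the 2 conditions did not overlap at 180 probes (2.65%), lower with rapamycin at 82 (1.21%) and higher at 98 (1.44%). Among RP probes this held for 3 lower and 1 higher, a share of 2.99% in both directions together, near that of all probes. The median difference was -0.10 over the RP probes and 0.01 over all probes, and 79 RP probes had a lower mean with rapamycin and 55 a higher one (59.0% lower, against 48.5% of all probes). Over the RP probes the median difference was 0.0003 without untreated replicate 1 and 0.046 without untreated replicate 2. The size of the difference had a median of 0.26 over RP probes and 0.27 over the others.

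What the arrays could resolve at a single promoter was limited. The 95% interval of the fitted difference reached a median of 0.91 to each side over the RP probes, from 0.67 at the narrowest to 1.88 at the widest. At 60 RP probes the interval left out a fall of 1 or more, and at 25 it lay within 1 on both sides. Of the 77 RP probes whose untreated mean was at least 1, 64 had a rapamycin mean of at least 1. At 64 of the 77 the interval also left out a fall as large as the whole untreated mean. At the remaining promoters of these 77 the interval included such a fall. This sets the interval against the untreated mean as measured, and is no test of the rapamycin level against 0. RPL15A is among these promoters, yet its rapamycin arrays read 0.45, 0.92, 0.72, 0.40 and 0.62.

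**Figure D4:**
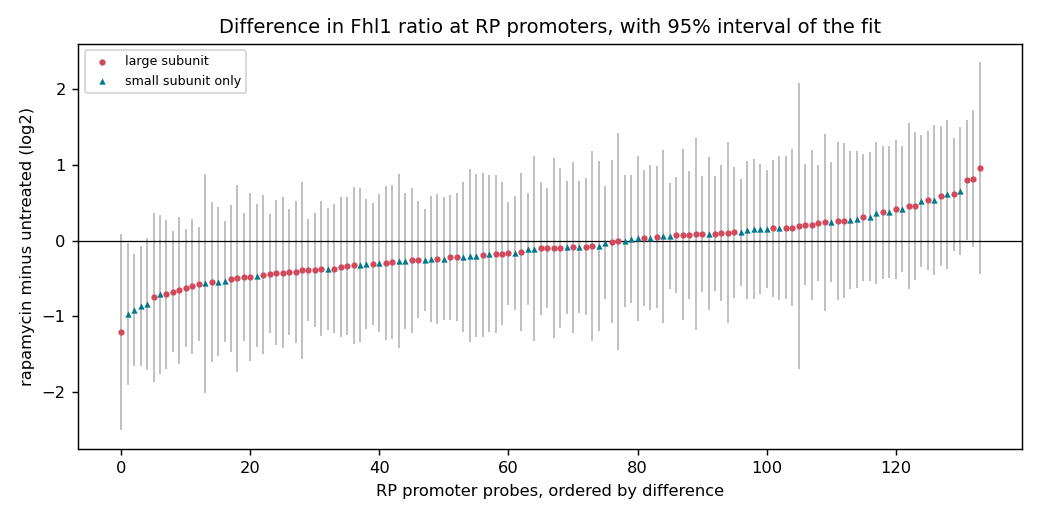
Fitted difference, rapamycin minus untreated (y axis, log2), of the 134 RP probes in increasing order (x axis), with the 95% interval of the limma fit as a grey line. Red circles face an RPL gene and blue-green triangles RPS genes only. Differences run from -1.21 at RPL12A to 0.95 at RPL1A, and most intervals cross 0.

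At 3 RP promoters all rapamycin arrays read below all untreated ones. RPS21B/LCB3, in front of a small-subunit gene and a sphingoid base phosphatase gene, read 2.76, 2.93 and 1.98 untreated and 1.74, 1.75, 1.34, 1.65 and 1.74 with rapamycin. All 5 rapamycin arrays stayed above 1. The difference was -0.92 (95% interval -1.65 to -0.18, limma unadjusted p = 0.0185, adjusted p = 0.999). RPS27B read 2.00, 2.90 and 1.77 against 1.48, 0.98, 1.74, 1.44 and 1.15, also without overlap, with a difference of -0.87 (limma adjusted p = 0.999). The probe of RPL37A outside the TOS4 promoter, a promoter named because it completes the list of those whose arrays do not overlap, read 1.32, 1.04 and 1.83 against 1.01, 1.01, 0.79, 1.04 and 0.25. Its lowest untreated and its highest rapamycin array both read 1.04 at this precision. None of these differences passed the adjusted test.

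RPL12A, for a protein at the base of the ribosomal stalk, had the largest RP difference, and 1 array weighed heavily in it. It read 3.04, 2.96 and 1.21 untreated and 2.07, 1.44, 1.48, 1.51 and -0.52 with rapamycin, a difference of -1.21 (-2.50 to 0.08). RPS29B/TSR1 read 1.88, 1.24 and 0.60 against -0.11, -0.01, -0.32, 1.09 and 0.72. Here 3 of the 5 rapamycin arrays were below 0 while the other 2 lay inside the untreated range, and the difference was -0.97 (-1.90 to -0.03, limma adjusted p = 0.999). TSR1 encodes a factor of small-subunit maturation. RPL21A read 2.31, 2.19 and 1.77 against 1.75, 1.97, 1.33, 0.69 and 1.36, with a difference of -0.67 and overlapping arrays.

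Other RP promoters read higher with rapamycin. RPL9A read 1.14, 0.69 and 1.08 untreated and 1.69, 2.24, 1.19, 2.27 and 1.46 with the drug, the only RP promoter with all rapamycin arrays above all untreated ones. Its difference was 0.80 (0.01 to 1.58, limma unadjusted p = 0.0481, adjusted p = 0.999). The other copy, FKH2/RPL9B, read 0.44, -0.94 and 0.48 against 1.07, 0.99, 0.42, 0.51 and -0.08. RPL14B, chosen here after its values were seen, read 0.50, 1.20 and 0.61 against 2.06, 1.37, 1.04, 2.46 and 0.98, with 2 rapamycin arrays inside the untreated range. RPL1A had the largest positive RP difference, 0.95, but untreated replicate 3 alone read -2.57 there and the other 2 untreated arrays 0.14 and 0.58.

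To say which promoters keep, gain or lose Fhl1, each condition was also tested against 0. With limma at an adjusted p under 0.05, 25 probes (0.367%) were higher than 0 in untreated cells and 54 (0.794%) with rapamycin. All of these faced RP genes, a fact that the turning helped to fix for the RPL probes but not for the RPS ones. Among the 53 RPS-only probes, 11 were called untreated and 22 with rapamycin. All 25 untreated calls were called with rapamycin too, so 25 promoters kept Fhl1 by this rule, 0 lost it and 29 were called with rapamycin only. Another 80 RP probes were called in neither condition. The larger count with rapamycin does not by itself show a gain, and the 0 losses do not show that Fhl1 stayed everywhere. The rapamycin group had 5 arrays against 3, and the median standard error of an RP mean was 0.26 against 0.33. A promoter with the same level in both conditions thus passes more easily with rapamycin. All 29 probes called only with rapamycin lay above 0 on every untreated array, 26 of them had an untreated mean of at least 1, and their median difference was 0.04.

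The counts rested on single arrays. Leaving out untreated replicate 1 or untreated replicate 2 left 0 probes higher in untreated cells. Leaving out rapamycin replicate 1, 2 or 3 left 21, 23 and 36 higher with rapamycin. The classes moved with them: without rapamycin replicate 1 there were 14 kept, 7 lost and 7 gained promoters, and without rapamycin replicate 2 there were 11, 1 and 12. Without rapamycin replicate 3 there were 21, 2 and 15, without rapamycin replicate 4 24, 1 and 16, and without untreated replicate 3 32, 5 and 24. Without untreated replicate 1 or 2 there were 0 kept, 0 lost and 50 gained. With the sets of arrays grouped by correlation as a block 10 were kept. The adjusted test found 0 differences between the conditions in each of these fits.

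The 25 kept promoters had a median level of 2.16 untreated and 1.87 with rapamycin, with a median difference of -0.24, 22 lower and 3 higher. They had been chosen by passing the test with 3 untreated arrays, which favours high untreated values, so this direction is a description only. The 3 with a higher rapamycin mean were RPL6A, RPS11B and YOR292C/RPS10A. Examples called only with rapamycin were SOP4/RPS14B, which read 1.57, 1.69 and 1.97 untreated and 2.04, 2.18, 2.67, 0.91 and 2.75 with the drug, and RPL16B, at 2.25, 2.34 and 0.47 against 2.69, 2.35, 1.34, 1.22 and 1.24. RPS6B, for a protein phosphorylated downstream of TORC1, read 1.56, 2.60 and 1.06 against 1.10, 1.79, 1.78, 2.52 and 0.51. All of these were high in both conditions.

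A rule of size, without a test, was applied as well. A promoter was counted when its mean was at least 1 and every array of the condition lay above 0. By that rule 92 probes (1.35%) held Fhl1 untreated and 81 (1.19%) with rapamycin, and 64 held it in both, 69.6% of the first list and 79.0% of the second. Over all probes 28 were counted only untreated and 17 only with rapamycin. Of the RP probes 63 were counted in both (kept), 14 only untreated (lost) and 11 only with rapamycin (gained), and 46 passed in neither condition. The rule asks 5 arrays to lie above 0 with rapamycin and 3 untreated, and is therefore stricter with the drug. The 14 losses had median levels of 1.32 untreated and 0.80 with rapamycin, and 9 faced RPL and 5 RPS genes. They were RPL12A, RPL15A, RPL17B, RPL19A, RPL20A, RPL24B, RPL26B, RPL33A, RPL37A, RPS12, RPS24A, RPS25B, RPS29B and RPS31. The 11 gains had median levels of 0.77 untreated and 1.09 with rapamycin, and were RPL9A, RPL10, RPL14B, RPL42A, RPL43A, RPP0, RPS1A, RPS7A, RPS9B, RPS27A and RPS30B. The tested difference passed the adjusted threshold at none of them. RPS31, which encodes a fusion of ubiquitin with a small-subunit protein, read 1.80, 1.14 and 1.00 against 0.05, 0.96, -0.25, 1.06 and 0.56. RPS1A, the weaker copy of RPS1 here, read 0.58, 1.04 and 0.59 against 1.73, 0.45, 0.74, 1.57 and 1.28. Both are named because they belong to these lists.

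Some RP promoters read near the typical probe in both conditions. At 16 RP probes both means lay within 0.5 of 0, which with these standard errors leaves room for a modest signal, and at 3 of the 134 both means were below 0. RP genes whose promoters carry sites for Abf1, another general regulatory factor, instead of the usual Rap1 sites formed a list of 6 probes, with medians of 0.00 untreated and -0.11 with rapamycin and 0 calls in either condition. YOR062C/RPL3 in that list read 0.03, 0.04 and -0.22 untreated and -0.41, 1.11, -0.63, 0.46 and 0.02 with the drug. RPL4B read -0.28, 0.38 and 0.25 against -0.24, -0.20, -1.02, -0.89 and -0.18, and RPS22B -0.29, 0.71 and 0.74 against -0.09, 0.39, -0.04, -1.73 and -0.16. RPS28A/GLN4 read 0.28, 0.29 and -0.41 against 1.96, -0.02, 0.63, 0.41 and 0.34, where 1 rapamycin array stood far above the rest. The 5 probes of genes for the acidic stalk proteins had medians of 0.56 and 1.02. They ranged from RPS15/RPP2A, whose means of 1.83 ± 0.55 and 1.92 ± 1.14 cannot be split between its 2 genes, to RPP2B, at -0.62 ± 0.63 and -0.31 ± 0.39. VRP1/RPP0, for the stalk's anchoring protein, read 0.59, 1.16 and -0.06 against 1.05, 1.34, 1.74, 0.15 and 1.19.

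Most RP genes of yeast exist in a pair of near-identical copies with different promoters, and the contrast within a pair held up under rapamycin. Of 56 pairs with a probe for each copy, 49 had the same copy higher in both condition means. In 21 pairs the copies differed by at least 1 untreated, and in 15 of these they differed by at least 1 the same way with rapamycin. In 19 pairs the same copy was higher on all 8 arrays. RPS14A minus RPS14B was -1.95 ± 0.61 untreated and -2.17 ± 1.09 with rapamycin, and RPS14B was higher on every array. RPS0A minus RPS0B was -1.75 ± 0.23 and -1.57 ± 0.72, and RPS11A minus RPS11B was -1.31 ± 0.05 and -1.77 ± 0.61, again with copy B higher throughout. Pairs that share a divergent probe, such as RPL13 and RPS16, are not independent, a copy on a divergent probe cannot be split from its neighbour (as RPP2A from RPS15), and a ratio also depends on each probe's length and position.

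A few pairs read differently in the 2 conditions, without a test of the change. RPS21A minus RPS21B was -2.66 ± 1.27 untreated and -1.09 ± 0.34 with rapamycin: copy A read -0.88, -0.17 and 0.75 against 0.40, 0.66, 0.82, 0.49 and 0.40, while copy B is the promoter given above. RPS29A minus RPS29B went from -0.82 ± 0.43 to 0.46 ± 0.51, and RPS27A minus RPS27B from -1.46 ± 1.12 to -0.32 ± 0.81. Each of these pairs was picked for its size. At each, copy B had a lower and copy A a higher mean with rapamycin. That direction was not general. RPL15A minus RPL15B went from 1.10 ± 0.27 to 0.10 ± 0.32, with copy A lower and copy B higher. RPL1A minus RPL1B went from -2.07 ± 1.00 to -1.04 ± 0.87.

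**Figure D5:**
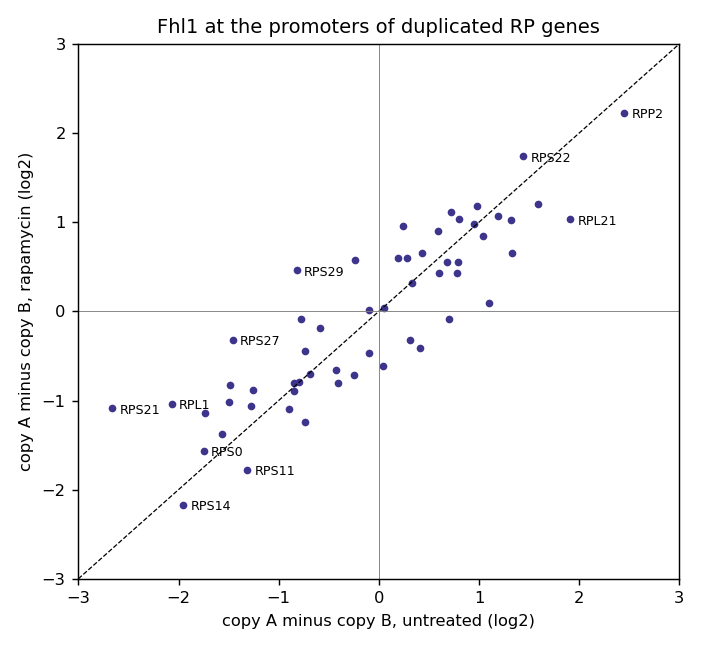
Difference between copy A and copy B of 56 duplicated RP genes in mean log2 ratio, untreated (x axis, 3 arrays) and with rapamycin (y axis, 5 arrays), each point a pair and the dashed line equal differences. In 49 pairs the point lies on the same side of 0 on both axes; RPS21 and RPS27 lie above the line and RPS29 on opposite sides.

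Outside the RP genes no promoter passed the adjusted limma test for being above 0 in either condition. Below 0 the same test called 2 probes untreated (0.0294%), iYCRCdelta14 at -1.83 ± 0.71 and the first probe at YFR057W at -1.50 ± 0.41, and with rapamycin 1 probe (0.0147%), YEA6, a mitochondrial NAD transporter gene, at -1.06 ± 0.31. Their means in the other condition were 0.03, -0.53 and -0.06. By the rule of size 1 non-RP probe qualified in both conditions, 14 only untreated and 6 only with rapamycin. The probe in both, named YOR235W after a reading frame next to RPL33B, read 1.73, 1.65 and 0.38 untreated and 1.45, 0.90, 0.86, 1.07 and 1.01 with rapamycin. The 6 with rapamycin only included SLX9/TOM20, between a ribosome biogenesis gene and a mitochondrial import gene, at -0.58, 0.04 and 0.60 against 1.10, 0.67, 1.72, 1.67 and 0.11. They also included the probe of AGA2, which by its name also borders the reading frame of RPL24A. It read 1.04, -0.14 and -0.64 against 0.78, 0.73, 2.36, 1.56 and 0.14. At both SLX9/TOM20 and AGA2 the lowest rapamycin array lay inside the untreated range.

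The probes with the largest differences and no overlap between conditions were not RP promoters. RFM1, for a subunit of a repressor of sporulation genes, read -1.42, -1.96 and 0.21 untreated and 0.61, 1.12, 2.62, 2.09 and 0.64 with rapamycin, a difference of 2.47 (1.20 to 3.74). JLP2/REC114, of which REC114 acts in meiotic recombination, read -1.20, -0.99 and -1.65 against 0.15, 0.51, 1.05, 2.28 and 0.79, a difference of 2.24. GZF3, a GATA-type repressor of nitrogen catabolite genes, read -0.33, -0.93 and -0.42 against 0.33, 1.09, 1.17, 1.75 and 0.73. At all 3 the untreated mean lay below 0, the level of the typical probe. On the other side, PIL1, a core component of eisosomes, read 1.48, 0.49 and 1.09 against -0.10, 0.41, -1.16, -0.84 and -0.15. One of the probes between CYC3 and CDC19, the pyruvate kinase gene, read 0.75, 0.83 and 0.74 against -0.86, -1.08, -0.19, -0.68 and -0.24. The adjacent probe of the same gap had means of 0.14 ± 0.48 and 0.12 ± 0.37. limma gave an adjusted p = 0.999 for the difference at each of these probes.

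Genes that act with or on Fhl1 carried little signal. FHL1's own promoter had means of -0.09 ± 0.65 untreated and -0.05 ± 0.57 with rapamycin. IFH1/UCC1 stood at 0.06 ± 0.22 and -0.18 ± 0.61, and RAP1 at 0.27 ± 0.76 and -0.22 ± 0.36. ARG82/HMO1, in front of a high-mobility-group protein also found at RP genes, stood at 0.09 ± 0.59 and 0.22 ± 0.46. CRF1 had means of -0.14 ± 2.08 and 0.02 ± 1.15, with single arrays from -2.49 to 1.65, a spread that makes its means uninformative. The 2 probes of SFP1, a TORC1-dependent activator of RP genes, had means between 0.10 and 0.38.

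Other groups of genes that TORC1 controls lay near the genome's typical probe, with 0 members called in any of the 3 tests. The 138 probes of ribosome biogenesis genes had medians of 0.04 untreated and 0.06 with rapamycin, and 7 of the 138 passed an unadjusted p under 0.05 for the difference, against 232 of all 6803 probes (3.41%). The 39 probes of RNA polymerase I and III genes had medians of 0.04 and 0.01, and the 41 of translation factors 0.00 and 0.11. The 66 probes of mitochondrial RP genes, whose products serve the other ribosome of the cell, had medians of 0.05 and 0.02, far from the 1.21 and 1.10 of the 81 RPL probes and the 1.31 and 1.11 of the 57 RPS probes. Glycolytic genes had medians of 0.14 and -0.04 over 31 probes. In that list TDH3, glyceraldehyde-3-phosphate dehydrogenase, read 1.33, 0.40 and 0.60 untreated and 0.29, 1.12, 1.55, 1.43 and 0.35 with rapamycin, and ADP1/PGK1 had means of 0.76 ± 0.36 and 0.28 ± 0.50. Nitrogen catabolite genes, which rapamycin is known to induce, had medians of -0.18 and -0.07 over 37 probes. In that list 4 of the 37 probes passed a limma unadjusted p under 0.05, against 232 of all 6803 (3.41%). Arrays did not overlap at 3 (8.11%, against 2.65% of all probes), all higher with rapamycin: GDH2, GZF3 and DAL7. These counts are small and the list was given no set test. GDH2, an NAD-dependent glutamate dehydrogenase, read -1.18, -0.76 and -1.08 against 0.40, 0.37, -0.62, 1.20 and -0.24. Stress response genes had medians of -0.03 and 0.02, and autophagy and vacuolar genes 0.01 and -0.12. Of the 47 stress response probes, 4 passed the same unadjusted threshold and 2 (4.26%) had arrays without overlap, both higher with rapamycin.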

How the data were processed

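Chromatin immunoprecipitation was read on 2-colour arrays of intergenic regions. The deposited values were log2 ratios: raising 2 to them gave ratios of 3 decimals for 100% of the values. The labels do not give background correction, normalisation, the numerator or which arrays were dye-swapped. Per the labels' protocols, linker-ligated DNA was amplified by PCR, labelled with Cy3 or Cy5 and read on a GenePix scanner. The number of arrays limits the precision.

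Each array was centred on its median and turned as described in the report, with no loess or quantile step. The condition means were fitted to the 8 arrays with limma 3.58.1 under R 4.3.3 (functions lmFit and eBayes) over all 6803 probes, two-sided, with Benjamini-Hochberg adjusted p under 0.05. The fit was also run on simulated arrays with known changes and independent noise, as a check of the code only. No power for these data is taken from that run. Levels per array were compared with exact permutation tests (scipy 1.17.1, Python 3.11.15).

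Probes took the genes facing them with a 5′ end, from probe names and the neighbours in NCBI's table of assembly R64: 5307 of 5574 reading frames matched, and 136 of 137 RP genes had a probe. The side a name stands for was read from the names alone: 42 of 52 genes with a gap on the higher-coordinate side only were named, against 4 of 53 on the lower. No coordinates are given, because the labels name no build for the array. A pair of names joined by a slash stands for divergent genes.

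The members and the lists were chosen with earlier results of these data known. By rule, named probes were those called in the difference, the 10 largest rises and falls without overlap, the 10 highest of each condition, examples of each class, the 2 largest differences of each list and a fixed set of regulators and RP genes. Others, among them paralogue pairs and members of the size-rule lists, were chosen after their values were seen. Alternatives changed the centring, spread, direction, arrays, blocks, weights and test. No gene list was given a set test. Some results that the naming rule covers are not reported here.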

Additional observations from a re-analysis of the deposited data

Results flagged for a closer look

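In the 5 rapamycin arrays 7 of 104 values tested had 1 array far from the other 4 (a gap of more than Dixon's 95% limit). Chance gives about 1 in 20 for values not chosen by their size. Probes named for large means or differences are among those tested, which favours such arrays, so that rate is no yardstick here. At RPL12A replicate 5 read -0.52 and the others 1.44 to 2.07. At RPS21B/LCB3 replicate 3 read 1.34 and the others 1.65 to 1.75. At RPS22B replicate 4 read -1.73 and the others -0.16 to 0.39. At HCM1, a forkhead gene, replicate 4 read -2.11 and the others -0.06 to 0.28. At the second probe between CYC3 and CDC19 replicate 4 read 0.78 and the others -0.07 to -0.01. Between CSE2 and PRP2 replicate 3 read 4.57 and the others -0.13 to 0.28. At UBP1 replicate 3 read 0.77 and the others -0.51 to -0.19. Groups of 3 untreated arrays were not examined this way.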

How the results depend on the processing

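The count of 0 called differences held under all 22 alternatives (11 to 292 probes at an unadjusted p under 0.05, smallest adjusted p 0.679). Of 98 named differences under these, 1992 values kept their sign, 164 turned it and 0 were called. Probes called against 0, of 27 untreated and 55 with rapamycin in either direction, changed more. Untreated, 45 were called with all 15 arrays in the fit, 44 with array weights, 41 with equal array spread, 17 with a term that does not turn with the array, 10 with the array cluster as a block, and 0 as deposited, without centring or with the replicate block, alone or with that term. With rapamycin, 29 were called with the replicate block, 12 without centring, and 0 as deposited or with the block and that term. Kept promoters numbered 39 with 15 arrays, 12 over probes facing 1 gene, 10 with the cluster block, 64 by the rule of size, 96 at an unadjusted p, and 0 as deposited, without centring and with either replicate block. Lost promoters numbered 4 with 12 or 15 arrays and with equal spread, 5 with array weights, 28 by size and 105 unadjusted. Gained promoters numbered 19 with array weights, 13 over probes facing 1 gene, 12 without centring, 17 by size, 166 unadjusted, and 0 as deposited and with the block and the non-turning term. The unadjusted counts are over all 6803 probes, promoters or not. Of them 87 of the 96 kept, 4 of the 105 lost and 15 of the 166 gained probes faced RP genes. The remaining 101 lost and 151 gained probes faced none. Leaving out 1 array gave 0 to 39 untreated and 21 to 57 rapamycin calls, 0 to 32 kept, 0 to 7 lost and 7 to 50 gained promoters. It gave RP level differences of -0.335 to 0.0565, RPS level differences of -0.345 to 0.0255 and an RPS AUC difference (area under the ROC curve, the ranking measure) of -0.0311 to 0.00891. As deposited these 3 differences were 0.0214, 0.0382 and 0.0561, and the RP level difference with the replicate block was 0.0236. The shared replicate numbers did not pair the arrays: deviations of same-numbered arrays correlated at 0.07, -0.11 and -0.16, and 0 of the 3 untreated arrays correlated best with its own number. The cause of these changes was not tested. Averaging opposite directions, as the deposited values require, removes the RP signal by construction.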

Other observations

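Introns of RP genes had their own probes. The median over 11 such probes was 0.58, 0.42 and 0.10 on the untreated arrays and 0.49, 0.40, -0.09, -0.18 and 0.26 with rapamycin. The means were 0.37 ± 0.25 and 0.18 ± 0.30, well under the promoters, and did not differ beyond the spread (exact permutation p = 0.393). The intron probe of RPS19B had the highest means, 0.86 ± 0.72 and 0.79 ± 0.94.

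RPL26A was the only RP gene without a probe at its 5′ end. A tRNA flank probe, itR(CCG)L, whose tRNA gene lies between GAS2 and RPL26A in R64, read 1.31, 2.15 and -2.16 untreated and 1.74, 1.58, 1.33, 0.79 and 0.63 with rapamycin. This probe was picked after its values were seen, and 1 untreated array opposes the other 7.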
